A study of Mus musculus with 16 samples.

Results

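The collagen genes of the mouse heart cells compared here were taken as every gene of the total RNA table whose symbol, found through its Ensembl ID, had the form Col, a type number, the letter a and a chain number. The rule found 44 genes among the 39043 entries of the table, and 42 of them passed the filter on low counts, which left 20254 genes for testing. By the class of the protein they encode, 11 were fibrillar, 6 were basement membrane, 9 were FACIT (fibril-associated collagens with interrupted triple helices) and 18 were others. Total RNA was sequenced from 3 libraries of cardiac stem cells (CSCs), 3 of cardiomyocytes derived from CSCs (iCMs) and 2 of adult cardiomyocytes (aCMs), all from C57BL/6 mice. CSCs came from adult hearts, sorted as negative for CD45 and CD31 and positive for c-kit, and were grown on gelatin in medium with serum. All CSC libraries were replicates of a single clone, so their spread does not cover differences between clones or animals. iCMs were made from cardiospheres, which are floating clusters of the cloned CSCs, held in StemPro medium with ascorbic acid and with Wnt5A, Wnt11, activin A, BMP-4 and beta-FGF, followed by DKK1. aCMs were separated from adult hearts after digestion with collagenase, and hearts were pooled.

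Collagens are proteins of the extracellular matrix, each built from chains that wind into a triple helix. Fibrillar collagens form the fibres that carry tension in the heart wall and are made mostly by fibroblasts. Type IV collagen forms the sheet of the basement membrane around each cardiomyocyte and under the endothelium. FACITs sit on fibrils, and the other classes include beaded filaments, short-chain networks, anchoring fibrils, transmembrane collagens and the multiplexins of basement membranes. After synthesis the chains are hydroxylated, folded with help of chaperones, trimmed outside the cell and cross-linked by lysyl oxidases.

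The libraries held 11114519 to 63238429 gene counts, the fewest in aCMs replicate 1 and the most in CSCs replicate 2. Levels are given as CPM, the count of a gene relative to the size of its library, scaled by the trimmed mean of M-values (TMM), and are not corrected for transcript length, so levels of different genes are set against each other only as counts, in shares and ratios that are compared between libraries. Kit, the gene of the protein on which CSCs were sorted, was at 0 to 0.0836 CPM in the CSC libraries and at 39.5 to 45 CPM in iCMs, so this defining marker was nearly absent from the RNA of the cells that carry the CSC label. The 6 cardiomyocyte markers summed to 49.7 to 118 CPM in CSCs, 13126 to 20518 in iCMs and 148751 to 178514 in aCMs. The Y-linked gene Eif2s3y was at 0.106 to 0.175 CPM in CSCs, at 29.6 to 33.6 in iCMs, at 0.263 in aCMs replicate 1 and at 84.8 in aCMs replicate 2. A difference of cell origin between CSCs and iCMs, or between the aCM libraries, therefore cannot be told apart from the labelled conditions. In these bulk libraries fewer cells of a type and less RNA per cell cannot be told apart either.

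Collagen transcripts took a large share of the CSC libraries, a smaller one of iCMs and the least of aCMs. Their counts were 2.40%, 1.06% and 1.75% of all gene counts in CSCs replicates 1 to 3. In iCMs they were 0.826%, 0.817% and 0.773%. In aCMs they were 0.0882% and 0.130%. No library of a group overlapped with another group, and the 95% Wilson intervals were narrow (1.060% to 1.065% for CSCs replicate 2), since they cover counting error only. Without Col1a1, Col1a2 and Col3a1 the CSC libraries held 0.933%, 0.431% and 0.628%, the iCM libraries 0.488%, 0.475% and 0.466%, and CSCs replicate 2 lay below every iCM library. The aCM libraries (0.0803% and 0.111%) stayed apart. The mean of the full share was 1.74% ± 0.67 (SD, n = 3) in CSCs, 0.805% ± 0.028 (SD, n = 3) in iCMs and 0.109% ± 0.030 (SD, n = 2) in aCMs.

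The make-up of the collagen counts differed between the groups as well. Fibrillar genes gave 73.5% to 78.8% of the collagen counts in CSCs and 52.7% to 53.4% in iCMs. In aCMs they gave 11.9% and 19.4%. Basement membrane genes gave 4.56% to 5.29% in CSCs, 24.1% to 26.8% in iCMs, and 54.3% and 64.2% in aCMs. The genes with the most counts were Col3a1 and Col1a1 in every CSC library, Col3a1, Col4a1 and Col1a1 in every iCM library, and Col4a1 and Col4a2 in both aCM libraries. At least 1 CPM in every library of the group was reached by 26 of the 44 genes in CSCs, 36 in iCMs and 28 in aCMs.

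**Figure D1:**
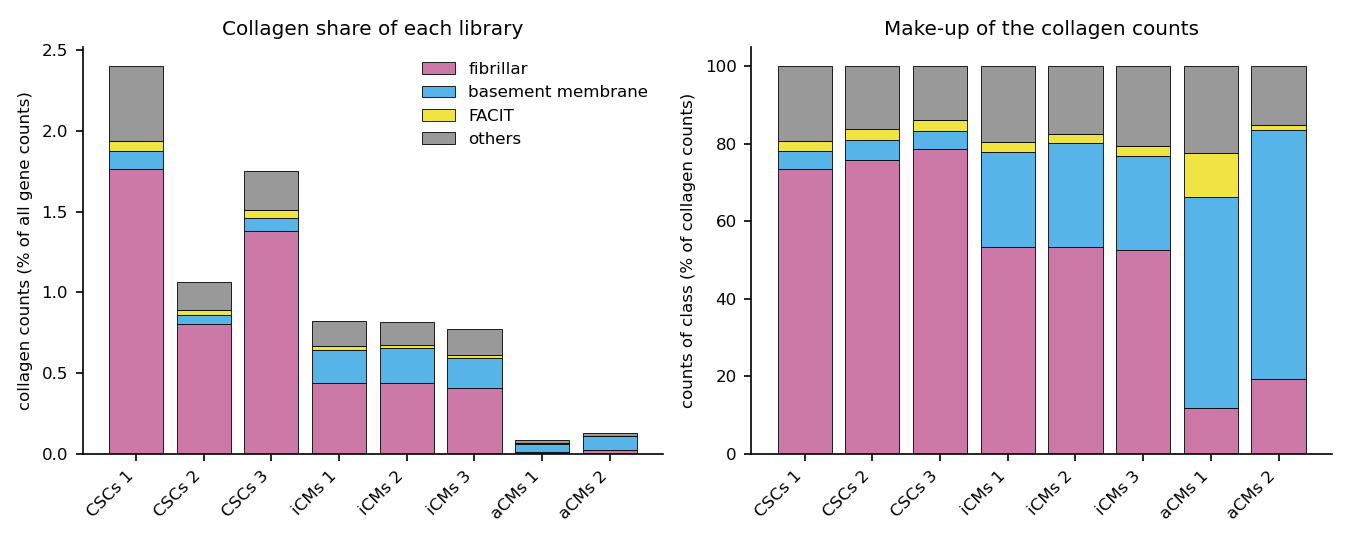
Bars give, for each library, the collagen counts as a percentage of all gene counts (left) and the percentage of the collagen counts held by each class (right), for fibrillar, basement membrane, FACIT and other genes. The left bars fall from 1.06% to 2.40% in CSCs to 0.0882% and 0.130% in aCMs, and the basement membrane part of the right bars grows from 4.56% to 5.29% in CSCs to 54.3% and 64.2% in aCMs.

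In iCMs vs. CSCs the collagen genes moved both ways. By edgeR's quasi-likelihood test with Benjamini-Hochberg adjustment over all tested genes, a gene was called at an adjusted p under 0.05 and a fold change of at least 2.5. Of the 42 tested genes 18 were up-regulated in iCMs, beside 22% of all tested genes, and 11 were down-regulated, beside 7.16% of all. The median log2 fold change was 0.56 over the collagen genes and -0.02 over all tested genes. Of the fibrillar genes 2 of 11 were up and 4 were down (median -1.17), of the basement membrane genes 4 of 6 were up and none was down (median 1.48). Of the FACIT genes 3 of 8 were up and 1 was down (median 0.16), and of the others 9 of 17 were up and 6 were down (median 2.08). Without CSCs replicate 1, which had the highest collagen share, 8 collagen genes were down, and without iCMs replicate 2 also 8. Of all tested genes 1554 and 1179 were down in these fits, against 1451 with all libraries.

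In iCMs vs. aCMs the calls went a single way. Of the 42 genes 28 were up-regulated in iCMs, beside 19.6% of all tested genes, and none was down-regulated, beside 15.3% of all. Col22a1 was the gene with an adjusted p under 0.05 and a negative fold change, at less than the required 2.5-fold. It was also the gene of negative fold change with an unadjusted p under 0.05, 1 of 42, and DESeq2 called 28 up and 0 down as well. With a library left out, 1 gene was called down without iCMs replicate 2 (Col22a1) and 1 without aCMs replicate 2 (Col12a1). The median log2 fold change was 2.83, or 2.34 with the 3 genes that had no count in aCMs set to the lowest fold their counts allow, against 0.19 over all tested genes. The calls covered 10 of 11 fibrillar genes (median 3.82), 1 of 6 basement membrane genes (median 0.88), 5 of 8 FACIT genes (median 3.30) and 12 of 17 others (median 2.78). With the libraries scaled by their totals alone, 35 collagen genes were up and 0 down, while the median of all genes shifted by 0.71 in the same direction, with 6706 genes up and 1754 down.

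In aCMs vs. CSCs 9 of the 42 genes were up-regulated in aCMs, beside 24.2% of all tested genes, and 20 were down-regulated, beside 20.4% of all. The median log2 fold change was -1.61 over the collagen genes, or -1.41 with the genes at 0 in aCMs set to their bound, against -0.10 over all. Down-regulated genes were 9 of 11 fibrillar (median -4.83), 1 of 6 basement membrane (median 0.88), 2 of 8 FACIT (median -0.47) and 8 of 17 other genes (median -1.58). With the bound, the FACIT median was 0.20, so its sign is not settled. The comparison shares its libraries with both others, so its values are given side by side with theirs and not as separate evidence.

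**Figure D2:**
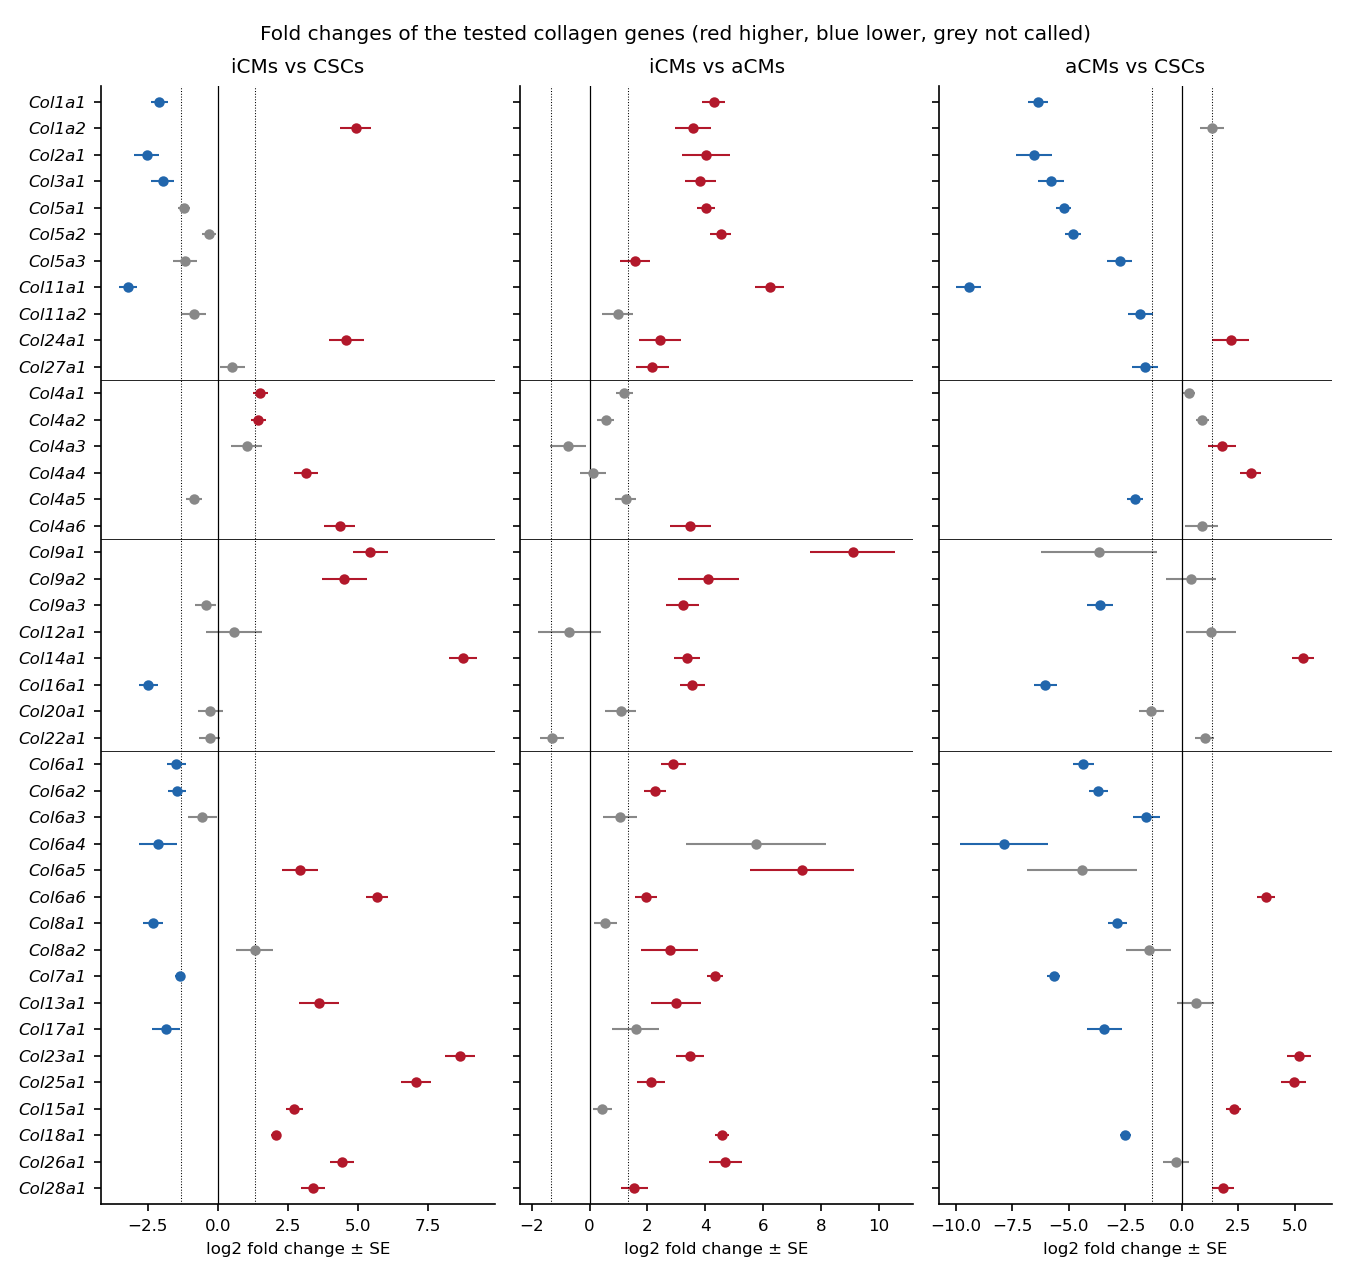
Each point gives the log2 fold change of a tested collagen gene with its standard error in each of the 3 comparisons, with genes grouped by class (fibrillar, basement membrane, FACIT and others, from top to bottom, parted by lines) and dotted lines at 2.5-fold; the fitted points of Col9a1, Col6a4 and Col6a5, which had no count in aCMs, are not bounds. In iCMs vs. CSCs 18 points are called higher and 11 lower, in iCMs vs. aCMs 28 higher and 0 lower, and in aCMs vs. CSCs 9 higher and 20 lower.

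Fibrillar collagens begin with type I, the main fibre of the heart, whose usual molecule joins Col1a1 chains with a Col1a2 chain. The genes of these chains moved in opposite directions between CSCs and iCMs. Col1a1 was at 4407, 3176 and 4604 CPM in CSCs replicates 1 to 3. It was at 914, 1083 and 888 CPM in iCMs and at 29.7 and 68.7 CPM in aCMs. Every CSC library stood above every iCM library and these above both aCM libraries. Col1a1 was down-regulated in iCMs vs. CSCs, and the log2 difference was -2.08 (SE 0.31, adjusted p = 4.79e-04 by edgeR).

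Col1a2 was lowest in the cells with the most Col1a1. It was at 5.60, 26.8 and 16.4 CPM in CSCs, at 430.3, 586 and 457 CPM in iCMs, and at 24.7 and 57.9 CPM in aCMs. The iCM libraries stood apart from all others, while aCMs overlapped with CSCs. Col1a2 was up-regulated in iCMs vs. CSCs by 4.91 on the log2 scale (SE 0.56, adjusted p = 7.94e-05 by edgeR) and in iCMs vs. aCMs by 3.57 (SE 0.63, adjusted p = 0.00118). In aCMs vs. CSCs the log2 fold change was 1.35 (SE 0.54, adjusted p = 0.0524), which did not pass. It was called there without CSCs replicate 2 (1.93) or aCMs replicate 1 (1.82), with the replicate block (1.44), by DESeq2 (1.39, adjusted p = 0.0185), with its size factors (1.40) and with the stricter filter (1.42).

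The promoter window of Col1a2 is shown because this gene parted from its partner chain. It runs from 250 bases before to 50 bases after the start that RefSeq annotates on GRCm38.p6, at chr6:4505368-4505667 on the plus strand. Capitals mark the letters CCAAT or their reverse complement ATTGG, the core of the box bound by the factor NF-Y, at positions -109 to -105 and 1 to 5 counted from the annotated first base as 1.
Col1a2: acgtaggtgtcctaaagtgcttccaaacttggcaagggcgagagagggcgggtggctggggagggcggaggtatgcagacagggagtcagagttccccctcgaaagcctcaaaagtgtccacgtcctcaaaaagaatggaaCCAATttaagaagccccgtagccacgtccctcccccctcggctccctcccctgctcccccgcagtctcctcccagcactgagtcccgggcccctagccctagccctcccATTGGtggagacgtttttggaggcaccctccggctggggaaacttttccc
Windows of this kind were matched for 35 of the 44 genes, 38 windows in all. None was matched for Col1a1, so the windows of the type I chains could not be compared. CCAAT or ATTGG was in 13 of the 38, against 37.4% of all 32851 windows of the table. TATAAA or TTTATA was in 5 of the 38, against 13.6% of all, and GGGCGG or CCGCCC was in 23 of the 38, against 35.7% of all. The Col1a2 window held 13 CG pairs, with a median of 7 over all windows, while that of Col3a1 held 0. These matches are a description of the letters and not of binding.

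The ratio of the type I chains within a library put the same difference on a scale that does not depend on library size. Counts of Col1a1 were 786, 118 and 280.1 times those of Col1a2 in CSCs. They were 2.12, 1.85 and 1.94 times in iCMs, and 1.20 and 1.19 times in aCMs. The CSC ratios did not come near those of either cardiomyocyte group, and the ratio was 151-fold lower in iCMs than in CSCs, a log2 difference of -7.23 that became -6.53 without CSCs replicate 1 and -7.90 without CSCs replicate 2. An exact two-sided permutation test over the libraries gave p = 0.10, the smallest that 3 against 3 libraries allow (0.138 adjusted over the 18 tests of 6 pairs in 3 comparisons), so no ratio here could pass.

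For the other pairs of chains the groups overlapped in some and not in others. Counts of Col4a1 were 1.38, 1.52 and 1.48 times those of Col4a2 in CSCs and 1.58, 1.49 and 1.5 times in iCMs, groups that overlapped (exact permutation p = 0.40), and 0.902 and 1.01 times in aCMs. Col6a1 was 1.281, 1.22 and 1.29 times Col6a2 in CSCs and 1.17, 1.26 and 1.31 times in iCMs (exact permutation p = 0.80). In aCMs it was 0.658 and 0.960 times Col6a2, below every CSC and iCM library. Col5a1 was 2.0, 2.31 and 2.12 times Col5a2 in CSCs, 1.15, 1.14 and 1.13 times in iCMs, and 1.81 and 1.53 times in aCMs. The groups of this pair did not overlap, with p = 0.10 in each comparison by the exact permutation test. Col8a1 was 71.5 to 442 times Col8a2 in CSCs, 6.85 to 15.8 times in iCMs, and 44.1 and 53.0 times in aCMs. Col3a1 and Col1a1, the genes of the main fibrillar types, stood at 0.895 to 1.93 in CSCs, 1.27 to 1.63 in iCMs and 2.03 and 2.04 in aCMs.

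**Figure D3:**
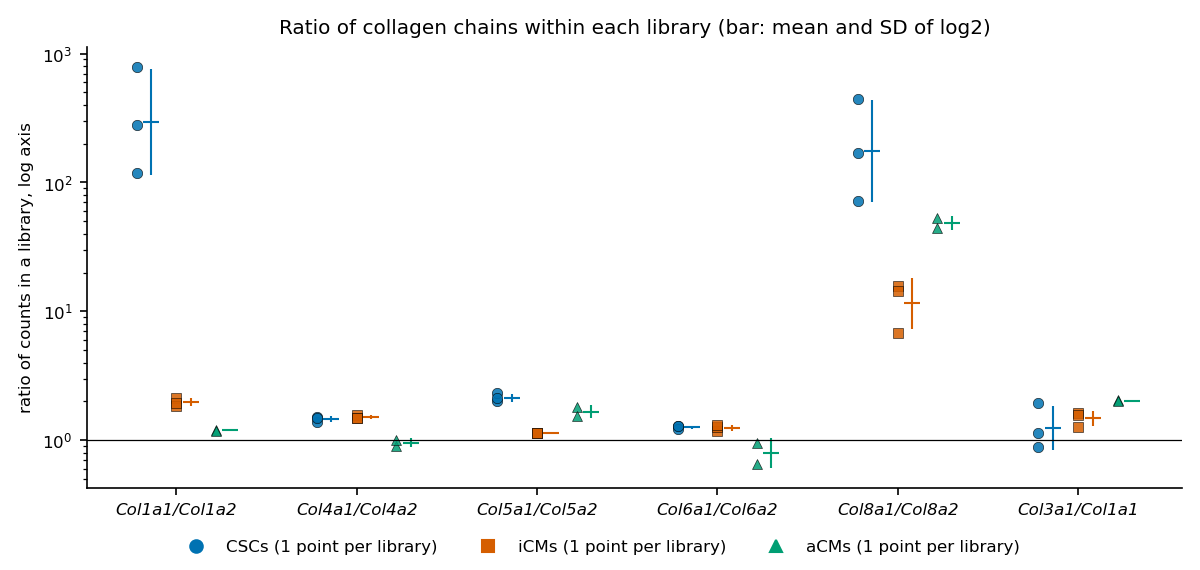
Points give the ratio of the counts of named collagen chains within each library, on a log axis, with a bar for the mean and SD of the log2 ratio in each group (CSCs n = 3, iCMs n = 3, aCMs n = 2). The Col1a1 to Col1a2 ratio lies at 118 to 786 in CSCs and at 1.85 to 2.12 in iCMs, while the Col4a1 to Col4a2 and Col6a1 to Col6a2 ratios of these groups overlap.

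Type III collagen, a homotrimer of the Col3a1 chain that mixes with type I in compliant tissue, fell with Col1a1. Col3a1 was at 8525, 2842 and 5214 CPM in CSCs, 1491, 1373 and 1394 in iCMs, and 60.5 and 139.6 in aCMs. CSCs replicate 2 was the lowest of its group but still above every iCM library. The log2 fold change was -1.96 in iCMs vs. CSCs (SE 0.42, adjusted p = 0.00355 by edgeR) and 3.82 in iCMs vs. aCMs (SE 0.54, adjusted p = 2.88e-04).

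Types V and XI are minor fibrillar collagens that sit inside larger fibrils and limit their width. Col11a1 showed the largest fall among the tested collagen genes in iCMs vs. CSCs. It was at 989.7, 402 and 863 CPM in CSCs, 95.3, 77.6 and 73.8 in iCMs, and 0.919 and 1.25 in aCMs. The 3 groups were far apart, and the log2 fold change was -3.19 in iCMs vs. CSCs (SE 0.32, adjusted p = 3.31e-05 by edgeR) and -9.41 in aCMs vs. CSCs. Its partner Col11a2 was at 37.1, 9.51 and 24.4 CPM in CSCs, 10.5, 12.4 and 16.3 in iCMs, and 4.33 and 8.81 in aCMs, with CSCs replicate 2 below every iCM library, and was not called in iCMs vs. CSCs. Its call in aCMs vs. CSCs (-1.84) was lost without aCMs replicate 1 (-1.45).

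None of the type V genes was called between CSCs and iCMs. Col5a1 was at 978, 808 and 832 CPM in CSCs, 373, 369 and 395 in iCMs, and 16.4 and 30.0 in aCMs. Its log2 fold change of -1.20 in iCMs vs. CSCs (SE 0.22, adjusted p = 0.00165 by edgeR) stayed under 2.5-fold. Col5a2, which lies 24.6 kb from Col3a1 on chromosome 1, was at 488, 349 and 392 CPM in CSCs, 324, 324 and 349 in iCMs, and 9.06 and 19.5 in aCMs. The lowest CSC library was thus level with the highest iCM library, and the log2 fold change was -0.30 (adjusted p = 0.347 by edgeR). Col5a3 was at 94.6, 85.2 and 100.3 CPM in CSCs, 41.9, 41.0 and 41.6 in iCMs, and 3.94 and 23.5 in aCMs, and its call in iCMs vs. aCMs (log2 fold change 1.58, adjusted p = 0.0304) was lost without aCMs replicate 1 (0.86, under 2.5-fold) and without any of the iCM libraries (adjusted p 0.0562 to 0.0624).

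The low fibrillar genes split. Col2a1, the collagen of cartilage, was at 8.86, 13.9 and 8.80 CPM in CSCs and 2.42, 1.95 and 0.997 in iCMs, and was down-regulated in iCMs by -2.53 on the log2 scale (SE 0.45, adjusted p = 0.00131 by edgeR). It had 2 counts in all in aCMs, which gives a ratio of 18.0 between iCMs and aCMs with a counting interval of 4.89 to 150. Col24a1, which encodes a fibrillar chain of developing bone and cornea, was at 0.0669, 0.0454 and 0.175 CPM in CSCs, 1.86, 2.21 and 2.53 in iCMs, and 0.657 and 0.192 in aCMs. It was up-regulated in iCMs vs. CSCs by 4.58 (SE 0.62, adjusted p = 2.47e-04), and its call in iCMs vs. aCMs (2.43) was lost without aCMs replicate 2 (1.76, adjusted p = 0.136). Its call in aCMs vs. CSCs (2.15) was lost on leaving out any library but CSCs replicate 3 or aCMs replicate 2, with 1.08 without aCMs replicate 1. Col27a1, a chain of cartilage and other developing tissues, was at 17.4, 3.76 and 9.03 CPM in CSCs, 15.2, 12.7 and 15.6 in iCMs, and 2.89 and 3.54 in aCMs, with iCMs inside the range of CSCs, and its call in aCMs vs. CSCs (-1.64) was lost without CSCs replicate 1 or either aCM library (-1.85 to -0.97).

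Of the 6 fibroblast and stromal markers 5 were up in iCMs vs. CSCs, beside 22% of all tested genes. Pdgfra was not called there (log2 fold change -0.46). In iCMs vs. aCMs 3 markers were up and 0 down by edgeR, beside 19.6% and 15.3% of all tested genes. In aCMs vs. CSCs 4 were up and Pdgfra was down (-2.24), beside 24.2% and 20.4%. All 6 were found, and they summed to 67.3 to 230.3 CPM in CSCs, 496 to 679 in iCMs and 250.1 to 344 in aCMs. Tcf21, a defining factor of cardiac fibroblasts, was at 0 in all CSC libraries. The part of stromal cells in the levels of iCMs and aCMs was not tested.

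**Figure D4:**
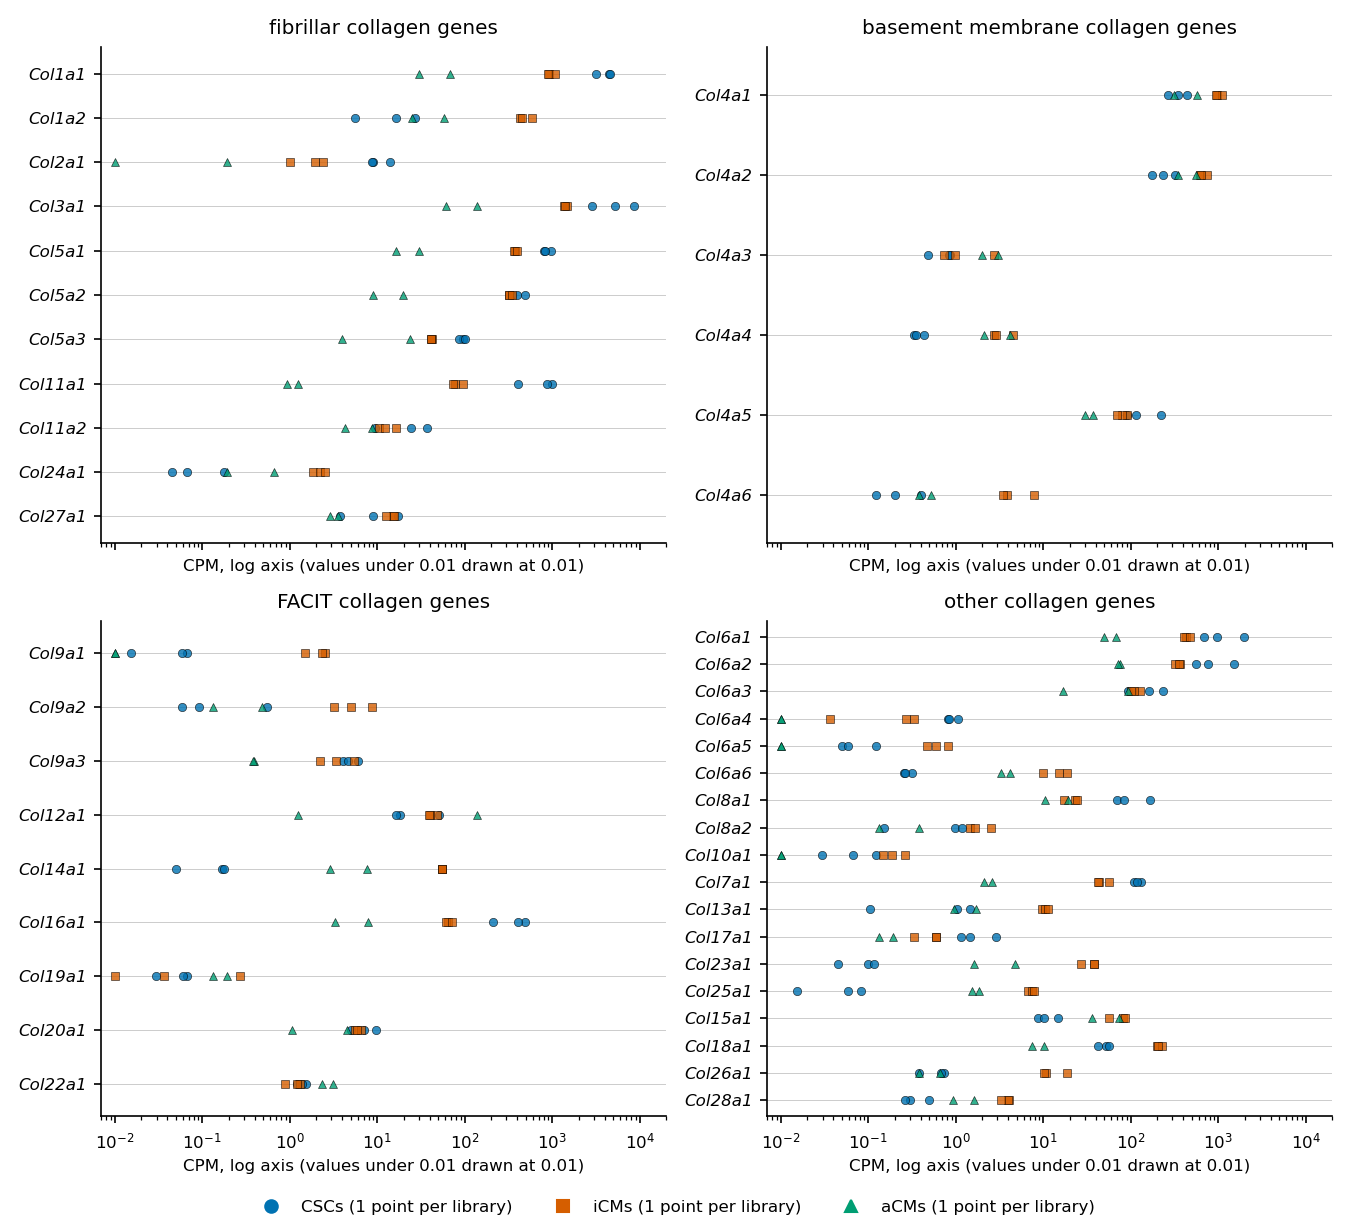
Points give the CPM of every collagen gene in each library on a log axis, with values under 0.01 drawn at 0.01, in panels for the fibrillar, basement membrane, FACIT and other genes. Col1a1 and Col1a2 show opposite orders of CSCs and iCMs (3176 to 4604 against 888 to 1083, and 5.60 to 26.8 against 430.3 to 586), and the aCM libraries of Col12a1 lie far apart, at 138 and 1.25.

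Of the 6 basement membrane genes 4 were up in iCMs over CSCs, beside 22% of all tested genes. Over aCMs 1 was up, beside 19.6% of all. Type IV collagen of most tissues is built from Col4a1 and Col4a2 chains. Col4a1 was at 446, 269 and 348 CPM in CSCs, 979, 1107 and 949.5 in iCMs, and 311 and 567 in aCMs. Col4a2 was at 322, 176 and 234 CPM in CSCs, 619.8, 745 and 635 in iCMs, and 345 and 562 in aCMs. For both genes every iCM library was above all others, and aCMs overlapped with CSCs for Col4a1 but not for Col4a2. Both were up-regulated in iCMs vs. CSCs, by 1.51 on the log2 scale for Col4a1 (SE 0.27, adjusted p = 0.00123 by edgeR) and by 1.45 for Col4a2 (SE 0.26, adjusted p = 0.00149), and Col4a2 fell to 1.26, under 2.5-fold, without CSCs replicate 2. In iCMs vs. aCMs neither was called, at 1.20 for Col4a1 (SE 0.30, adjusted p = 0.00865), which missed the fold alone, and 0.56 for Col4a2 (SE 0.29). Col4a1 was called there without aCMs replicate 2 (1.73), with no filter on low counts (1.36) and with library totals (1.90).

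The type IV genes lie in head-to-head pairs, each pair read outwards from a shared region. Col4a1 and Col4a2 are on chromosome 8. In the promoter table of RefSeq the first base of Col4a2 is 11312805 on the plus strand and that of Col4a1 is 11312826 on the minus strand, so the transcripts that start there share 22 bases. The outermost annotated ends of the genes overlap by 85 bases. The window of Col4a2 is shown because these genes moved together in iCMs vs. CSCs, at chr8:11312555-11312854 on GRCm38.p6, plus strand, with those 22 bases in capitals.
Col4a2: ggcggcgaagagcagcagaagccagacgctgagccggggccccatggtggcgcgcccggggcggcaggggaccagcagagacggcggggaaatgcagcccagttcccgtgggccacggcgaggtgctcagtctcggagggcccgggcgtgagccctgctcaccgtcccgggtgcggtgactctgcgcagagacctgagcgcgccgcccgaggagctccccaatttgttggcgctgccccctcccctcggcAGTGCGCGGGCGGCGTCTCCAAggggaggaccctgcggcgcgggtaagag
This window held 33 CG pairs and that of Col4a1 held 37, the most among the 38 windows.

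The second pair, Col4a3 and Col4a4 on chromosome 1, encodes chains of the mature kidney and lung basement membranes, and its annotated ends overlap by 114 bases. Col4a4 was at 0.334, 0.439 and 0.351 CPM in CSCs, 2.75, 4.49 and 2.92 in iCMs, and 2.10 and 4.12 in aCMs. It was up-regulated over CSCs in iCMs (log2 fold change 3.16, SE 0.42, adjusted p = 2.36e-04 by edgeR) and in aCMs (3.05, SE 0.46, adjusted p = 2.83e-04). Col4a3 was at 0.869, 0.485 and 0.847 CPM in CSCs, 0.969, 2.76 and 0.731 in iCMs, and 3.02 and 2.01 in aCMs. The groups of iCMs and CSCs overlapped, and of the comparisons only aCMs vs. CSCs called the gene (log2 fold change 1.77, adjusted p = 0.0313 by edgeR). That call was lost without either aCM library, CSCs replicate 2 or CSCs replicate 3 (1.44 to 2.0).

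The third pair, Col4a5 and Col4a6, whose starts are 1.27 kb apart on the X chromosome, differed: Col4a6 rose in iCMs over CSCs and Col4a5 was not called there. Col4a5, which joins chains in kidney and also smooth muscle basement membranes, was at 221, 91.7 and 115 CPM in CSCs, 89.9, 79.2 and 69.5 in iCMs, and 37.2 and 30.1 in aCMs. Its log2 fold change was -0.84 in iCMs vs. CSCs (SE 0.30, adjusted p = 0.0398 by edgeR), under 2.5-fold, and -2.09 in aCMs vs. CSCs (SE 0.36, adjusted p = 7.04e-04). Against aCMs the change in iCMs was 1.24, under 2.5-fold. Col4a5 was called there without iCMs replicate 3 (1.36) and with the replicate block (1.35). Dropping the filter on low counts (1.41) or using library totals (1.96) also gave the call. Col4a6 was at 0.401, 0.121 and 0.205 CPM in CSCs, 3.82, 7.77 and 3.46 in iCMs, and 0.525 and 0.383 in aCMs. It was up-regulated in iCMs by 4.35 over CSCs (SE 0.56, adjusted p = 1.86e-04) and by 3.48 over aCMs (SE 0.71, adjusted p = 0.00281). The 6 endothelial markers, whose cells also make type IV collagen, summed to 2.01 to 3.23 CPM in CSCs, 1186 to 1418 in iCMs and 978 to 1250 in aCMs, with none at 0 in a whole group. Their part in the type IV levels was not tested.

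Among the FACIT genes, Col14a1 and Col16a1 gave the clearest contrast. Col14a1 encodes a fibril-bound collagen of tendon, skin and heart. It was at 0.0502, 0.167 and 0.175 CPM in CSCs, 55.6, 54.8 and 55.7 in iCMs, and 2.89 and 7.57 in aCMs. The iCM libraries were almost level with each other and far above all others, and the log2 fold change of 8.73 in iCMs vs. CSCs (SE 0.50, adjusted p = 5.50e-07 by edgeR) was the largest of the collagen genes there. Col16a1, a minor collagen of fibroblasts and smooth muscle, was at 484, 212 and 410.4 CPM in CSCs, 65.1, 60.9 and 72.5 in iCMs, and 3.28 and 7.76 in aCMs. It fell by 2.48 on the log2 scale in iCMs vs. CSCs (SE 0.34, adjusted p = 2.78e-04) and fell by 6.03 in aCMs vs. CSCs (SE 0.50, adjusted p = 4.07e-06).

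Of the genes of type IX collagen, which binds type II fibrils in cartilage, Col9a1 and Col9a2 rose in iCMs over CSCs. Col9a1 was at 0.0669, 0.0151 and 0.0584 CPM in CSCs, 2.5, 1.51 and 2.33 in iCMs, and 0 in both aCM libraries. It was up-regulated in iCMs vs. CSCs by 5.44 on the log2 scale (SE 0.63, adjusted p = 1.54e-04 by edgeR), and its 169 counts in iCMs against 0 in aCMs, with a floor of 3 counts over the group, made it at least 12.8-fold higher there. Col9a2 was at 0.552, 0.0909 and 0.0584 CPM in CSCs, 5.04, 3.17 and 8.71 in iCMs, and 0.131 and 0.479 in aCMs, and rose by 4.51 in iCMs vs. CSCs (SE 0.80, adjusted p = 0.00130), while its call in iCMs vs. aCMs (4.10) was lost without aCMs replicate 1 (3.57, adjusted p = 0.0753). Col9a3 did not follow: it was at 4.08, 4.60 and 5.96 CPM in CSCs, 2.21, 3.42 and 5.38 in iCMs, and 0.394 and 0.383 in aCMs, with overlapping CSCs and iCMs. The 6 chondrocyte markers summed to 45.4 to 50.3 CPM in CSCs, 58.1 to 75.0 in iCMs and 5.17 to 14.4 in aCMs, where Matn1 and Matn3 were at 0. Their part in the type IX levels was not tested.

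Col12a1, a large FACIT of tendon and of tissue under strain, could not be placed in aCMs. It was at 18.4, 50.5 and 16.5 CPM in CSCs and 48.7, 40.3 and 39.1 in iCMs, but at 138 CPM in aCMs replicate 1 and 1.25 in aCMs replicate 2. No comparison called it with all libraries. Without aCMs replicate 1 it was up-regulated in iCMs vs. aCMs by 5.13 on the log2 scale (adjusted p = 0.00231 by edgeR) and the log2 fold change in aCMs vs. CSCs was -4.53, with both signs turned. Without aCMs replicate 2 it was down-regulated in iCMs vs. aCMs, at -1.67 (adjusted p = 0.0389), and up-regulated in aCMs vs. CSCs, at 2.23 (adjusted p = 0.00753). These libraries also differed in Eif2s3y (0.263 and 84.8 CPM), whose part in the difference was not tested. Col20a1 was at 7.12, 4.95 and 9.64 CPM in CSCs, 5.52, 6.59 and 5.85 in iCMs, and 1.05 and 4.50 in aCMs. Its log2 fold change was 1.08 in iCMs vs. aCMs (adjusted p = 0.126 by edgeR) and -1.35 in aCMs vs. CSCs (adjusted p = 0.0553). With library totals both were called (1.77 and -2.01). Without aCMs replicate 2 both were called (2.53 and -2.83), and the second also without CSCs replicate 2 (-1.55) and with no filter on low counts (-1.53). Col22a1, which in mouse and zebrafish marks muscle and tendon junctions, was at 1.55, 1.38 and 1.20 CPM in CSCs, 0.889, 1.33 and 1.20 in iCMs, and 2.36 and 3.16 in aCMs, and aCMs were above every other library. Its log2 fold change of -1.29 in iCMs vs. aCMs (SE 0.41, adjusted p = 0.0264) was under 2.5-fold. Col19a1 had 11 counts in iCMs, 9 in CSCs and 3 in aCMs and was not tested.

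Type VI collagen forms beaded filaments close to the cell surface, from Col6a1, Col6a2 and a further chain. Col6a1 was at 1967, 687 and 975 CPM in CSCs, 432, 406 and 473 in iCMs, and 49.1 and 68.6 in aCMs. Col6a2 was at 1535, 564 and 756 CPM in CSCs, 368, 322 and 360.1 in iCMs, and 74.7 and 71.5 in aCMs. The CSCs stood above iCMs and iCMs above aCMs for both, and CSCs replicate 1 was the highest of its group. The log2 fold changes in iCMs vs. CSCs were -1.47 for Col6a1 (SE 0.35, adjusted p = 0.00631 by edgeR) and -1.44 for Col6a2 (SE 0.33, adjusted p = 0.00489), and they shrank to -0.92 and -0.91, under 2.5-fold, without CSCs replicate 1.

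The chains that can complete type VI did not move as one. Col6a3, the usual partner, was at 234, 162 and 93.2 CPM in CSCs, 127, 108 and 101 in iCMs, and 92.5 and 17.1 in aCMs, and was not called in iCMs vs. CSCs. Its call in aCMs vs. CSCs (log2 fold change -1.58, adjusted p = 0.0435 by edgeR) was lost without aCMs replicate 2 (-0.87), CSCs replicate 1 (-1.22), CSCs replicate 2 or any iCM library. Col6a3 was called in iCMs vs. aCMs without aCMs replicate 1 (2.75), with the replicate block (1.58) and with library totals (1.77). Col6a6, a chain of muscle and skin, was at 0.318, 0.257 and 0.263 CPM in CSCs, 15.1, 9.90 and 18.8 in iCMs, and 3.28 and 4.21 in aCMs, with no overlap between groups. It was up-regulated in iCMs vs. CSCs by 5.68 (SE 0.38, adjusted p = 1.93e-06) and in iCMs vs. aCMs by 1.95 (SE 0.38, adjusted p = 0.00211). Col6a4 and Col6a5, its neighbours on chromosome 9 with gaps of 27.9 and 27.8 kb, stayed under 1.1 CPM in all libraries (highest 1.05 and 0.810) and were at 0 in aCMs. Col6a4 was down and Col6a5 up in iCMs vs. CSCs, and Col6a5 had 51 counts in iCMs, at least 3.87-fold over aCMs by the same floor.

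Col8a1 and Col7a1 were lower in iCMs than in CSCs. Col8a1, a short-chain collagen of vessel walls, was at 164, 70.3 and 84.6 CPM in CSCs, 23.2, 17.3 and 24.3 in iCMs, and 10.4 and 19.0 in aCMs. The log2 fold change of Col8a1 was -2.30 in iCMs vs. CSCs (SE 0.35, adjusted p = 5.09e-04 by edgeR). Its partner Col8a2 was at 0.970, 0.151 and 1.17 CPM in CSCs, 1.45, 2.5 and 1.66 in iCMs, and 0.131 and 0.383 in aCMs. Its call in iCMs vs. aCMs (log2 fold change 2.78, adjusted p = 0.0396) was lost on leaving out any iCM or aCM library (adjusted p 0.0555 to 0.187), and in aCMs vs. CSCs it was called down without CSCs replicate 2 (-1.95). Col7a1, the anchoring fibril collagen of skin, was at 132, 109 and 119 CPM in CSCs, 43.0, 42.8 and 56.7 in iCMs, and 2.63 and 2.11 in aCMs. It fell by 1.34 on the log2 scale in iCMs vs. CSCs (SE 0.18, adjusted p = 2.34e-04), just past 2.5-fold, and went under that fold without CSCs replicate 1, iCMs replicate 1 or iCMs replicate 2 (-1.26, -1.25 and -1.26). Col10a1, a collagen of hypertrophic cartilage that lies inside the gene Nt5dc1, had 15 counts in iCMs, 13 in CSCs and 0 in aCMs and was not tested.

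The multiplexins, whose cleavage gives fragments such as endostatin, rose in iCMs over CSCs. Col18a1 was at 52.0, 42.2 and 55.8 CPM in CSCs, 199, 228 and 207 in iCMs, and 7.49 and 10.2 in aCMs, with no overlap between groups. Its log2 fold change was 2.08 in iCMs vs. CSCs (SE 0.18, adjusted p = 1.17e-05 by edgeR) and 4.57 in iCMs vs. aCMs (SE 0.25, adjusted p = 2.05e-06). It lies 326 kb from Col6a1 on chromosome 10, a gene that fell in the same comparison with CSCs. Col15a1, of the basement membrane of muscle and capillaries, was at 8.74, 10.3 and 14.8 CPM in CSCs, 81.2, 56.8 and 87.1 in iCMs, and 36.5 and 73.7 in aCMs. It was up-regulated over CSCs in iCMs by 2.74 (SE 0.32, adjusted p = 9.08e-05) and in aCMs by 2.29 (SE 0.34, adjusted p = 2.30e-04), while iCMs and aCMs overlapped.

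Of the 4 transmembrane collagens 3 were up in iCMs vs. CSCs, beside 22% of all tested genes. Among these 3, Col23a1 and Col25a1 were nearly absent from CSCs. Col23a1 was at 0.10, 0.0454 and 0.117 CPM in CSCs, 27.2, 38.5 and 38.1 in iCMs, and 4.73 and 1.63 in aCMs. For Col23a1 the log2 fold change was 8.64 in iCMs vs. CSCs (SE 0.53, adjusted p = 8.71e-07 by edgeR) and 3.47 in iCMs vs. aCMs (SE 0.48, adjusted p = 2.52e-04). Col25a1, known in mouse for its part in the wiring of motor nerves to muscle, was at 0.0836, 0.0151 and 0.0584 CPM in CSCs, 6.62, 7.51 and 7.91 in iCMs, and 1.84 and 1.53 in aCMs, and rose by 7.07 in iCMs vs. CSCs (SE 0.53, adjusted p = 4.12e-06). Col13a1, a collagen of the neuromuscular junction, was at 1.47, 0.106 and 1.02 CPM in CSCs, 9.72, 10.5 and 11.2 in iCMs, and 1.71 and 0.958 in aCMs, and rose by 3.6 (SE 0.72, adjusted p = 0.00246), while its call in iCMs vs. aCMs (3.0) was lost without either aCM library. Col17a1, the hemidesmosome collagen of skin, went the other way, at 1.44, 1.15 and 2.89 CPM in CSCs, 0.592, 0.331 and 0.598 in iCMs, and 0.131 and 0.192 in aCMs. Its log2 fold change of -1.84 in iCMs vs. CSCs (adjusted p = 0.0129) was not called without iCMs replicate 2 (-1.60, adjusted p = 0.0578).

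Col26a1 and Col28a1 also rose in iCMs. Col26a1, a gene of the developing testis and ovary in mouse, was at 0.736, 0.682 and 0.380 CPM in CSCs, 10.6, 10.2 and 18.8 in iCMs, and 0.657 and 0.383 in aCMs, and rose by 4.43 in iCMs vs. CSCs (SE 0.43, adjusted p = 2.35e-05 by edgeR). Col28a1, found around peripheral nerve, was at 0.301, 0.50 and 0.263 CPM in CSCs, 4.09, 3.94 and 3.32 in iCMs, and 0.919 and 1.63 in aCMs, and rose by 3.38 (SE 0.42, adjusted p = 1.45e-04). Its call in iCMs vs. aCMs (1.55) was lost without iCMs replicate 1 or 2 or aCMs replicate 1, and that in aCMs vs. CSCs (1.83) without aCMs replicate 2 (1.30). Markers of other cells were also measured. Of 3 Schwann, 4 epithelial, 6 epicardial and 6 pericyte markers, 2, 4, 5 and 5 were up in iCMs vs. CSCs. Of all tested genes 22% were up there. Msln (-0.50) and Pdgfrb (-1.22) were among the markers that were not up. The 3 Schwann cell markers summed to 1.17 to 2.51 CPM in CSCs, 4.77 to 8.28 in iCMs and 5.38 to 9.39 in aCMs, with none at 0 in a whole group. The 4 epithelial markers summed to 1.76 to 3.24 CPM in CSCs, 74.2 to 183 in iCMs and 2.23 to 3.26 in aCMs, where Cdh1 was at 0. The 6 epicardial and mesothelial markers summed to 174 to 211 CPM in CSCs, where Upk1b was at 0, 287 to 512 in iCMs and 16.7 to 16.9 in aCMs. The 6 pericyte and smooth muscle markers summed to 307 to 443 CPM in CSCs, 653 to 975 in iCMs and 1379 to 1640.2 in aCMs. The part of these cells in the collagen levels was not tested.

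Read over the 3 comparisons, the 42 tested genes showed 12 patterns of calls. The patterns were not counted over all tested genes, so whether any is more frequent among collagen genes was not tested. In 8 genes the level fell at each step from CSCs to iCMs to aCMs: Col1a1, Col2a1, Col3a1, Col11a1, Col16a1, Col6a1, Col6a2 and Col7a1. In 7 genes iCMs were above both other groups and aCMs vs. CSCs was not called: Col1a2, Col4a6, Col9a1, Col9a2, Col6a5, Col13a1 and Col26a1. Of these Col1a2 was called in aCMs vs. CSCs under the alternatives named above. In 6 genes iCMs were highest and aCMs also above CSCs: Col24a1, Col14a1, Col6a6, Col23a1, Col25a1 and Col28a1. Col9a1, Col6a5 and Col24a1 were among the genes that passed the filter on low counts through iCMs alone. Their counts were 169, 51 and 167 in iCMs, 7, 13 and 13 in CSCs, and 0, 0 and 7 in aCMs. That they count as high in iCMs thus follows in part from the filter. In 5 genes aCMs were below both CSCs and iCMs, which were not called against each other: Col5a1, Col5a2, Col5a3, Col27a1 and Col9a3. Col6a4, Col8a1 and Col17a1 were highest in CSCs and were not called in iCMs vs. aCMs, and Col11a2, Col4a5 and Col6a3 were lower in aCMs than in CSCs and called in no other comparison. Col4a4 and Col15a1 were lowest in CSCs, Col4a1 and Col4a2 were called in iCMs vs. CSCs alone, and Col18a1, Col8a2 and Col4a3 each had a pattern of their own. Col12a1, Col20a1 and Col22a1 were called in none by the main fit, and each was called with a library left out. Of the 44 genes 23 overlap another annotated gene, and the use of strand in the counting is not given in the sources used here.

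Genes that make and trim collagen moved both ways. Of 31 synthesis genes, all tested, 4 were up-regulated and 8 down-regulated in iCMs vs. CSCs (median log2 fold change -0.47), beside 22% and 7.16% of all tested genes. In iCMs vs. aCMs 13 were up and 1 was down (median 0.89), beside 19.6% and 15.3%, and in aCMs vs. CSCs 4 were up and 16 down (median -1.68), beside 24.2% and 20.4%. The 1 down became 3 without iCMs replicate 1 and 0 without iCMs replicate 2, iCMs replicate 3 or aCMs replicate 1. Lox, a lysyl oxidase that starts the cross-links of collagen and elastin, was at 1980, 1248 and 1242 CPM in CSCs, 136, 122 and 114 in iCMs, and 3.02 and 3.45 in aCMs, and fell by 3.58 on the log2 scale in iCMs vs. CSCs (SE 0.24, adjusted p = 1.88e-06 by edgeR). Loxl2, which acts on type IV collagen as well, went the other way, at 1.57, 2.74 and 2.22 CPM in CSCs, 94.3, 79.8 and 80.1 in iCMs, and 10.2 and 15.1 in aCMs, and rose by 5.28 (SE 0.28, adjusted p = 3.65e-07). The CSC and iCM libraries did not overlap for either gene, and their order was opposite.

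Tll1, a tolloid protease that removes procollagen ends, was at 0.167, 0.0606 and 0.117 CPM in CSCs, 8.54, 6.96 and 6.45 in iCMs, and 0.263 and 0.192 in aCMs, and rose by 5.96 on the log2 scale in iCMs vs. CSCs (SE 0.47, adjusted p = 5.59e-06 by edgeR). Colgalt2, a collagen galactosyltransferase, was at 0.0334, 0 and 0.0292 CPM in CSCs, 7.05, 3.46 and 5.45 in iCMs, and 12.5 and 12.9 in aCMs. Adamts3, a protease that removes the amino end of procollagen, rose in iCMs vs. CSCs by 2.97 and was the gene called against its list in iCMs vs. aCMs, at -1.43 (SE 0.43, adjusted p = 0.0202). Its level was 0.334, 0.515 and 0.175 CPM in CSCs, 3.10, 2.69 and 2.53 in iCMs, and 8.14 and 6.80 in aCMs. The other genes down-regulated in iCMs vs. CSCs were P4ha3, P4ha1, Pcolce, Loxl4, Mia3, Serpinh1 and Adamts14, at log2 fold changes of -2.91 to -1.33. In aCMs vs. CSCs P4ha3, Pcolce and Adamts2 fell with the smallest p after Lox, at -7.36, -4.82 and -3.12, against rises of Colgalt2, Adamts3, Loxl2 and Pcolce2. Adamts2, P4ha3 and Pcolce were the ones that led iCMs vs. aCMs beside Lox, at 3.02, 5.26 and 2.95.

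Collagen receptors were measured for 10 genes, of which 9 were tested. In iCMs vs. CSCs 3 were up and 2 down (median log2 fold change 0.50), beside 22% and 7.16% of all tested genes. Between iCMs and aCMs 5 were up in iCMs and 0 down by edgeR (median 1.37), beside 19.6% and 15.3%. Itga1, the 1 gene lower there at an unadjusted p under 0.05, had an adjusted p of 0.00692 at a log2 fold change of -1.23, under 2.5-fold, and without aCMs replicate 1 there was 1 gene down. In aCMs vs. CSCs 1 was up and 4 were down (median -0.32), beside 24.2% and 20.4%, and without CSCs replicate 3 there were 2 up. Ddr2, a receptor kinase for fibrillar collagen, was at 489, 577 and 494 CPM in CSCs, 75.5, 69.9 and 75.6 in iCMs, and 15.4 and 26.1 in aCMs, and fell by 2.82 on the log2 scale in iCMs vs. CSCs (SE 0.21, adjusted p = 4.47e-06 by edgeR). Mrc2, which takes up collagen for breakdown, was at 568, 230 and 478 CPM in CSCs, 105, 81.7 and 111 in iCMs, and 5.38 and 14.8 in aCMs, and fell by 2.10 (SE 0.39, adjusted p = 0.00168). Itga1, an integrin chain with preference for type IV collagen, was at 4.35, 2.36 and 2.51 CPM in CSCs, 31.4, 32.0 and 26.2 in iCMs, and 55.2 and 85.1 in aCMs, and rose by 3.28 (SE 0.30, adjusted p = 1.5e-05). Itga2, an integrin chain for type I collagen, rose by 2.85, and Lair1, an inhibitory receptor of leukocytes, rose by 2.75, beside macrophage markers (6 of 6 found) that summed to 4.23 to 9.96 CPM in CSCs, 75.1 to 124 in iCMs and 48.1 to 86.3 in aCMs, with none at 0 in a whole group. Their part in the rise was not tested. In iCMs vs. aCMs Ddr1 (1.37) and Itga10 (3.17) were up beside Ddr2, Mrc2 and Itga2. Among the 4 genes down in aCMs vs. CSCs were Ddr2 and Mrc2, while Itga1 rose by 4.51.

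**Figure D5:**
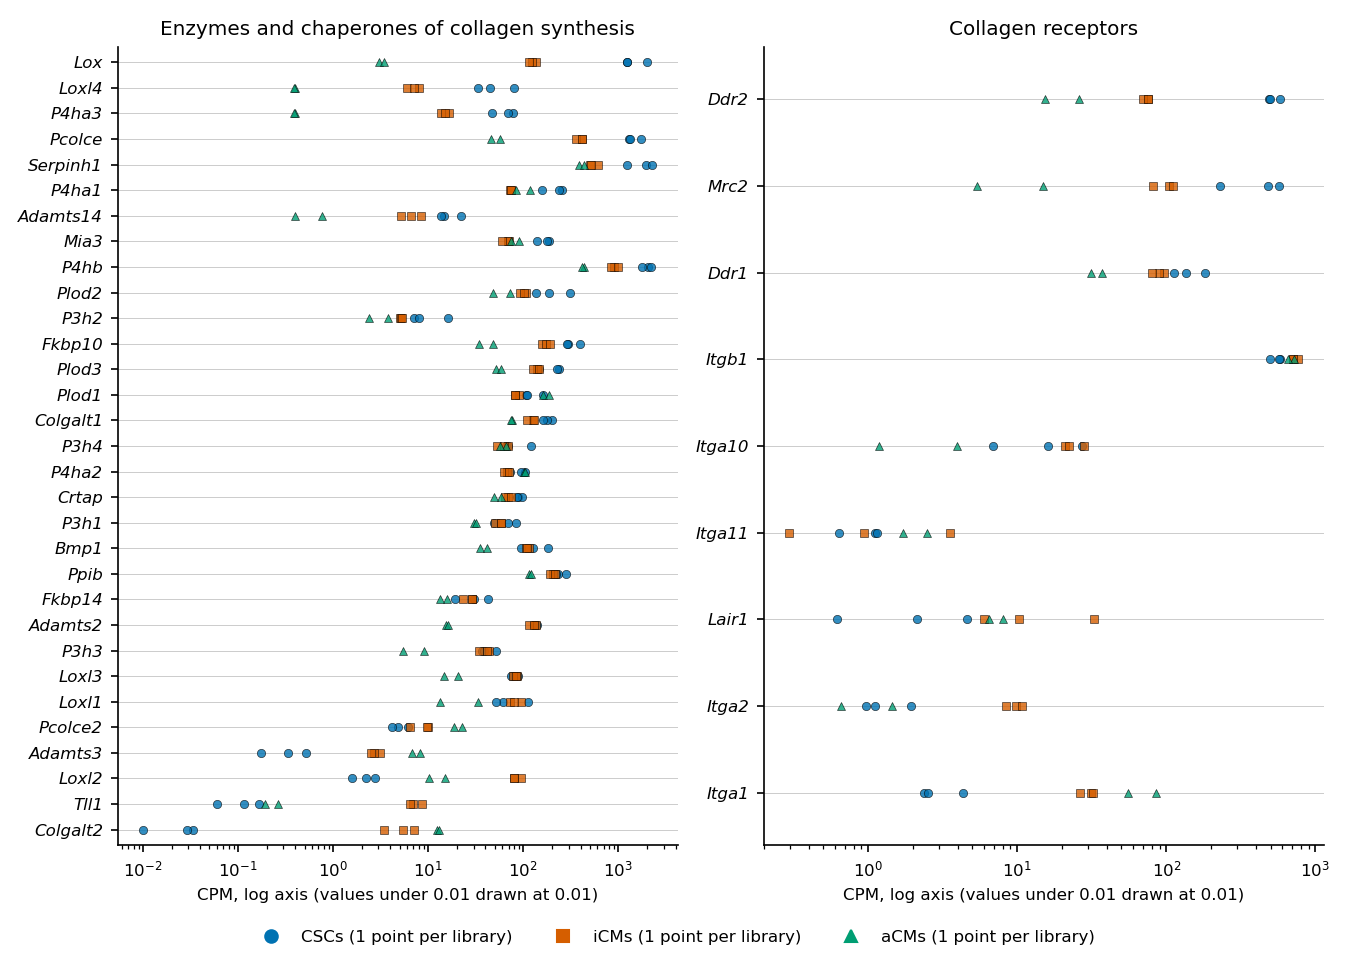
Points give the CPM of each synthesis gene (left) and each tested receptor gene (right) in every library on a log axis, ordered by the log2 fold change in iCMs vs. CSCs from the lowest at the top. Lox lies at 1242 to 1980 in CSCs and 114 to 136 in iCMs, and Loxl2 at 1.57 to 2.74 and 79.8 to 94.3.

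The miR-29 family was read from the small RNA libraries of the same groups, which held 4089474 to 9776644 counts, because these miRNAs are known to bind transcripts of many collagens. Its members share the seed, bases 2 to 8, which is in capitals in the mature sequences from RefSeq (GRCm38.p6). miR-29a-3p is at chr6:31062673-31062694 on the minus strand and miR-29c-3p at chr1:195037600-195037621 on the plus strand. miR-29b-3p has a copy beside each of them.
miR-29a-3p: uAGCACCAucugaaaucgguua
miR-29b-3p: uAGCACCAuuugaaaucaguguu
miR-29c-3p: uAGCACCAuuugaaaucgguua
Outside the seed they differ in the middle and at the end, and miR-29b-3p is the longest.

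miR-29 levels separated aCMs from the cultured cells through miR-29c-3p. It was at 175, 98.3 and 111 CPM in CSCs, 169, 152 and 175 in iCMs, and 3036 and 2616 in aCMs. A miRNA was called at an adjusted p under 0.05 and a log2 fold change of at least 0.6, which 64.2% of the 718 tested miRNAs met in iCMs vs. CSCs, 62% in iCMs vs. aCMs and 68.9% in aCMs vs. CSCs, so a call alone says little. miR-29c-3p was lower in iCMs than in aCMs, and the log2 difference was -4.10 (SE 0.34, adjusted p = 1.27e-06 by edgeR), and was not called in iCMs vs. CSCs (0.37, SE 0.29). miR-29a-3p was at 5232, 6524 and 4274 CPM in CSCs, 2697, 2609.6 and 2889 in iCMs, and 10412 and 9312 in aCMs. The iCM libraries were below all others, with log2 fold changes of -0.97 against CSCs (SE 0.24, adjusted p = 0.00328) and -1.85 against aCMs (SE 0.26, adjusted p = 6.75e-05). Its change in aCMs vs. CSCs (0.88) turned to -0.43 with the libraries scaled by their totals alone. miR-29b-3p was at 206, 393 and 305 CPM in CSCs, 88.5, 87.0 and 162 in iCMs, and 139 and 260.3 in aCMs, and fell by 1.42 in iCMs vs. CSCs (SE 0.39, adjusted p = 0.00578). Its change in iCMs vs. aCMs was not called (-0.82, adjusted p = 0.105), but was without iCMs replicate 3 (-1.19) or aCMs replicate 1 (-1.44) and by DESeq2 (-1.23). No relation between these miRNAs and the collagen transcripts was tested.

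Collagen genes also host miRNAs, and these were looked up after the levels had been seen. Mir455 lies inside Col27a1 at chr4:63256851-63256932 (GRCm38.p6), and gives the mature forms printed here with the seed in capitals.
miR-455-5p: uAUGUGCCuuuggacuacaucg
miR-455-3p: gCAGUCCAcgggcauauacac
miR-455-5p was at 32.8, 14.9 and 18.8 CPM in CSCs, 137, 86.6 and 131 in iCMs, and 14.9 and 22.9 in aCMs, with iCMs above all other libraries. It rose in iCMs vs. CSCs by 2.41 on the log2 scale (SE 0.39, adjusted p = 1.33e-04 by edgeR), where the log2 fold change of its host Col27a1 was 0.53 (SE 0.45, adjusted p = 0.363). In iCMs vs. aCMs both were higher in iCMs, by 2.64 for miR-455-5p (SE 0.47, adjusted p = 3.13e-04) and by 2.17 for Col27a1 (SE 0.58, adjusted p = 0.0114), and the call of Col27a1 was lost without either aCM library. miR-455-3p was at 11.3, 5.70 and 7.79 CPM in CSCs, 226, 26.4 and 122 in iCMs, and 37.0 and 14.9 in aCMs, and rose by 3.91 in iCMs vs. CSCs. miR-711, inside Col7a1, did not exceed 0.241 CPM in any library.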

How the data were processed

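Total RNA and small RNA were sequenced from 8 libraries each, 3 of CSCs, 3 of iCMs and 2 of aCMs, and samples were grouped by the labels. The authors depleted ribosomal RNA, aligned paired-end reads to mm10 and quantified Ensembl transcripts in Strand NGS, and deposited expected counts per gene, of which 51.4% of the values were not whole; these were rounded. The deposited miRNA counts were made by the authors with Cutadapt and iSMART against miRBase. The submitters' processing notes also name DESeq2 1.28.1 and R 4.0.2. Whether strand was used in counting is not given in the sources used here. The methods state that libraries were split into groups for preparation but not which, so that batch could not be fitted. Entries outside the annotation (956) held 0.147% of the counts. No replicates were near duplicates: at most 0.393% of entries had equal counts in any pair of libraries.

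All 8 libraries were fitted together with edgeR 4.0.16 (R 4.3.3; TMM scaling, filterByExpr, quasi-likelihood test), with p-values adjusted over all 20254 tested genes or 718 of 1818 miRNAs. A gene was called at an adjusted p under 0.05 and 2.5-fold, and a miRNA at a log2 fold change of 0.6. Ratios of chains had 0.5 counts added. Alternatives were DESeq2 1.42.0, its size factors, library totals, other filters and thresholds, fits of the compared groups, a replicate block and each library left out. Scripts were tested on simulated data. Every collagen gene that reached 1 CPM in every library of 1 group was named with its levels (40 of 44), and of the synthesis and receptor lists the 4 called genes with the smallest p per comparison and any gene called against its list. Lists of synthesis, receptor and cell type marker genes, and the collagen genes themselves, were chosen with earlier results of these data known. Depth was 11114519 to 63238429 counts for total RNA, and intervals cover counting error only. The paper traces CSC and iCM replicates to 1 clone, although the levels of Eif2s3y and Kit differed between these groups. The p-values measure the spread between these libraries only.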

Additional observations from a re-analysis of the deposited data

How the results depend on the processing

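Of 1797 collagen fold changes under the alternatives, 1694 kept their direction and side of the threshold, 63 lost the call, 28 gained it and 12 turned sign, and of 225 miRNA fold changes 198 kept both and 10 turned. Scaling by library totals shifted the median of all genes by 0.71 in iCMs vs. aCMs (6706 genes up, 1754 down, against 3972 and 3097) and by -0.66 in aCMs vs. CSCs (3816 up, 6695 down, against 4906 and 4140). Under it the collagen calls were 18 up and 10 down, 35 and 0, and 6 and 21 in the order of the report, and these log2 fold changes turned sign: Col12a1 in iCMs vs. aCMs (0.046), Col4a1 (-0.35), Col9a2 (-0.25) and Col13a1 (-0.087) in aCMs vs. CSCs, miR-29b-3p in iCMs vs. aCMs (0.31) and miR-29a-3p in aCMs vs. CSCs (-0.43). Without the fold threshold 4440 genes were lower in iCMs than in CSCs, against 1451, and 1 collagen gene, Col22a1, was lower in iCMs than in aCMs.

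Leaving out each library gave 17 to 18 collagen genes up and 8 to 11 down in iCMs vs. CSCs, 24 to 28 up and 0 to 1 down in iCMs vs. aCMs, and 8 up and 18 to 21 down in aCMs vs. CSCs. Signs turned within the ranges of Col4a4 (-0.25 to 0.72) and Col12a1 (-1.67 to 5.13) in iCMs vs. aCMs, and, in aCMs vs. CSCs, of Col12a1 (-4.53 to 2.23), Col4a1 (-0.24 to 0.66), Col9a2 (-0.92 to 2.0), Col26a1 (-0.68 to 0.063), miR-29b-3p (-0.83 to 0.13) and miR-455-5p (-0.47 to 0.38). The log2 ratio difference of Col6a1 to Col6a2 in iCMs vs. CSCs turned to 0.029 without iCMs replicate 1 (range -0.053 to 0.029). The alternatives for miR-455-5p were chosen after seeing the data, and DESeq2, its size factors and the stricter filter gave 0.10, 0.10 and 0.085 in aCMs vs. CSCs. The causes were not tested. Without Col1a1, Col1a2 and Col3a1 the mean collagen share was 0.664% in CSCs and 0.476% in iCMs.

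With the replicate block the collagen calls were 18 up and 11 down, 29 and 0, and 9 and 18. Over all tested genes the calls were 4383 up and 1312 down, 3764 and 3004, and 4843 and 3929. Deviations were correlated between CSC and iCM libraries, each being the log2 CPM of a gene or miRNA less the mean of its group. For same-numbered libraries the correlations of the deviations were 0.03, 0.15 and 0.07 (total RNA) and 0.17, 0.04 and 0.20 (small RNA). For libraries of unlike number they were -0.12 to 0.07 and -0.27 to 0.06. Within a group the deviations of a gene sum to 0, so these correlations depend on each other. Whether the numbers pair the libraries is not settled by these values, and the main fit had no replicate block. Where a library left out made an aCM group of 1, its spread was assumed to be that of the other groups. The alternative of a level per kb was not run, since no transcript lengths were used here. Counts of synthesis genes moved by over 1.5 times in 9 of 102 alternatives and those of receptors in 5 of 102. Depth limits the genes with a few counts in aCMs.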
